A study of Mus musculus with 8 samples.

Results

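The 10 apolipoprotein genes Apoa1, Apoa2, Apoa4, Apoa5, Apob, Apoc1, Apoc2, Apoc3, Apoe and Apom were examined in the livers of female mice on a western diet (WD). They were chosen by symbol, through the Ensembl mouse gene identifiers of the deposited table, and all 10 were found among its 14317 mouse genes. Con-Veh mice (n = 4) carried an empty pellet and Con-DHT mice (n = 4) a 10 mm pellet of dihydrotestosterone (DHT), an androgen that is not converted to estrogen. Both groups were implanted at 7 weeks of age and kept on WD for 8.5 weeks, then fasted overnight before the livers were taken. The labels give the genotype of both groups as WT. The strain is not given in the sources used here. Each library came from 1 mouse, and whole liver was used, so fewer cells of a type and less RNA per cell cannot be told apart. Each library held between 13123962 and 17815944 reads on mouse genes. The labels give no batch. The values described are the deposited ones, which are read counts divided by a size factor for each library. All 8 hepatocyte markers (among them Alb and Ttr) were in the table and none was called between the groups by limma. Of 11 Kupffer cell and macrophage markers, all were in the table and 6 were called lower in Con-DHT, where 2.61% of all genes were called lower. Also called lower were 2 of 6 endothelial markers (Stab2 and Lyve1) and 2 of the 4 measured B and plasma cell markers (Igkc and Igha).

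Apolipoproteins are the protein parts of lipoprotein particles. Apob is the scaffold of very low density lipoprotein (VLDL), Apoa1 and Apoa2 are the main proteins of high density lipoprotein (HDL), and the smaller Apoc proteins move between particles and tune lipoprotein lipase. Apoe leads remnants to receptors on hepatocytes, and the liver is the main source of most of these proteins in blood. Apoa1, Apoc3, Apoa4 and Apoa5 lie next to each other on chromosome 9, and Apoc2, Apoc1 and Apoe on chromosome 7. Apoa2 is on chromosome 1, Apob on chromosome 12 and Apom on chromosome 17.

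None of the 10 members was called by limma on log2(value + 1), with a call set at an adjusted p of 0.05 or less, where 7.21% of the 14312 genes tested were called. At an unadjusted p of at most 0.05, 2 members passed, Apoa4 and Apom, against 23.2% of all genes. The quasi-likelihood test of edgeR on whole reads recovered from the values called 0 members, where 7.15% of all genes (1024) were called, and 3 members passed at an unadjusted p of at most 0.05, against 23.4% of all genes. The Wald test of DESeq2 called 4 members, where 11.0% of all genes were called. These were Apoa4 and Apob, higher in Con-DHT as were 6.45% of all genes, and Apoe and Apom, lower as were 4.51% of all genes. The median log2 fold change (Con-DHT minus Con-Veh) of the 10 members was -0.03, beside -0.01 for all genes tested. In Apoe and Apom all 4 Con-DHT values lay below all 4 Con-Veh values, a gap seen in that direction in 6.62% and in either direction in 15.1% of all genes. The values of each liver for the 10 genes are plotted by group.

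**Figure D1:**
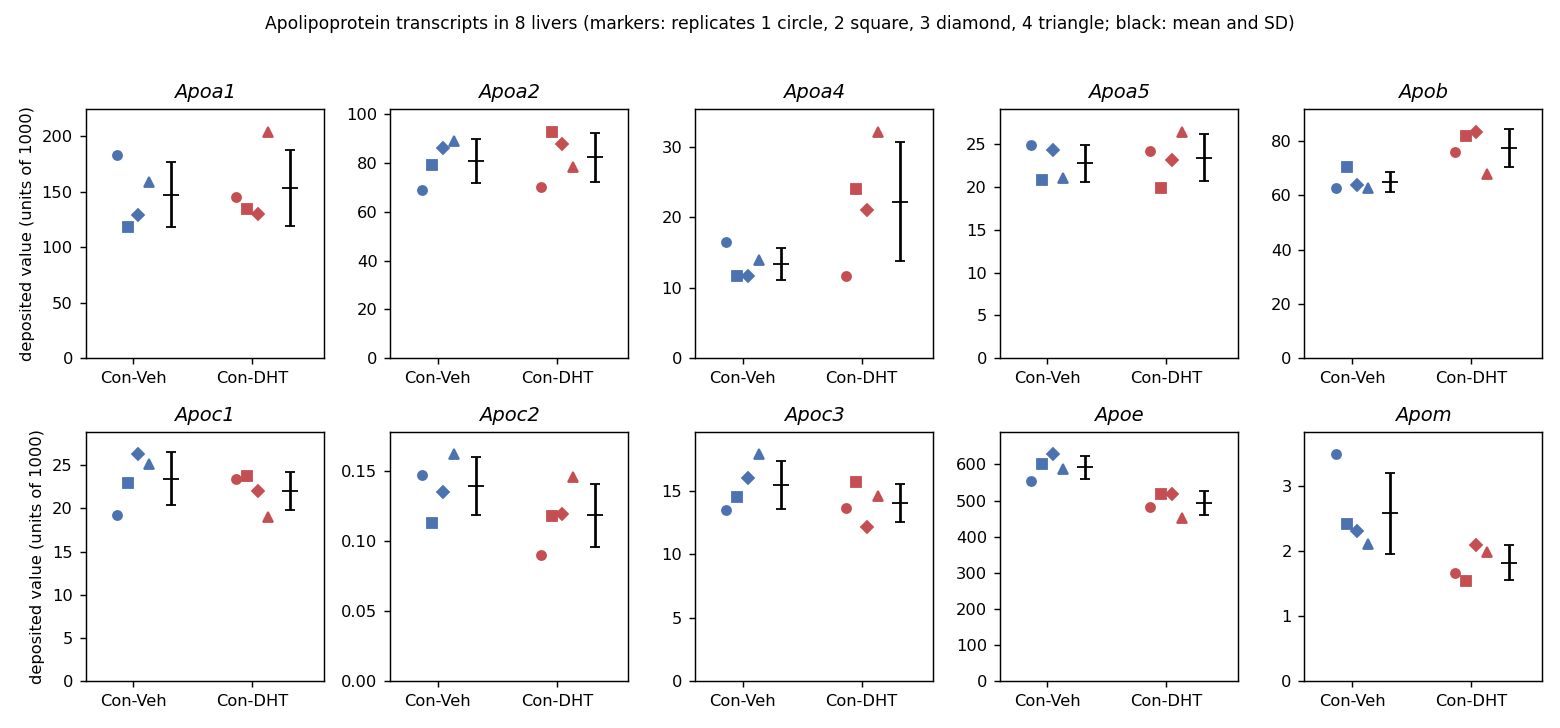
Deposited value in units of 1000 (vertical axes, from 0) of each member in the 4 Con-Veh (blue) and 4 Con-DHT (red) livers, with a marker for each replicate number and the group mean and SD in black. The groups are apart in Apoe and Apom, and Con-DHT replicate 1 lies among the Con-Veh livers in Apoa4.

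The upstream sequences of Apoe and Apob are shown because these are the highest and the longest of the members and the DESeq2 calls went in opposite directions for them. Each is the 250 bases before the RefSeq start site, read 5′ to 3′ along the strand of the gene, in build GRCm38.p6. Apoe is at chr7:19699189-19699438 on the minus strand and Apob at chr12:7977427-7977676 on the plus strand. The last bases of the Apob window lie within other GENCODE transcripts of the gene. Capitals mark a match to the motif TATAAA.
Apoe: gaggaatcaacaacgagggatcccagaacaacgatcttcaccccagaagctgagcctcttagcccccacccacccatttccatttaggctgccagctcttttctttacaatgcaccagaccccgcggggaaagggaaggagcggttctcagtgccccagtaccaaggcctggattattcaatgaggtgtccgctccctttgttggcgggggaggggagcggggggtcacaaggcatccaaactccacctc
Apob: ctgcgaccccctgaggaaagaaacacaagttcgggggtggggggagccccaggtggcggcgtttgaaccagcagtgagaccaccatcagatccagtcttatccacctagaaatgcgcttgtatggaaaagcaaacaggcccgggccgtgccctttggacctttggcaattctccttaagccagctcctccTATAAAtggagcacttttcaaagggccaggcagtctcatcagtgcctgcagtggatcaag

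RefSeq windows of 300 bases, reaching from 250 bases before to 50 after a start site, were held for 8 members, and Apoc1 and Apoc3 were not among them. TATAAA on either strand was found in 3 of the 8, in Apoa2 (first base at -212), Apoa5 (-56) and Apob (-60), and in 13.6% of all 32851 windows of that length. The nuclear receptor half-site AGGTCA was found only in Apoc2 of the 8, at -115 and 42, and in 16.3% of all windows. These positions are counted from RefSeq starts and depend on the annotation. The RefSeq start minus that of GENCODE transcript 201 was -28 bases for Apoa2, -445 for Apoa5, -102 for Apob and 1077 for Apoc2. For Apoe, whose upstream sequence is shown above, this difference was 136 bases. The STAT5 motif TTCNNNGAA (8.30% of all windows), the HNF4A motif CAAAGTCCA (0.475%) and the cyclic AMP response element TGACGTCA (1.79%) had no exact match in the 8 windows. Both strands were searched, and the lack of a match says only that these letters are not in these windows.

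Apoe had the second highest mean deposited value of all mouse genes, not corrected for length. Con-Veh replicates 1 to 4 held deposited values of 552964, 600162, 628084 and 586433. Con-DHT replicates 1 to 4 held 481959, 519156, 518561 and 450955. The highest Con-DHT liver was thus below the lowest Con-Veh liver, and the means were 591911 ± 31217 and 492658 ± 32796 (SD, n = 4). The log2 fold change was -0.27 with a 95% interval from -0.92 to 0.39 (SE 0.30, adjusted p = 0.64 by limma). The SE of this gene came mostly from the spread that limma's intensity trend expects at its level, an SD of 0.64 on the log2 scale, while the SD of Apoe itself within groups was 0.088. Scaled by the ERCC spike-ins, control RNAs added to each sample, the log2 fold change of Apoe was -0.07 (adjusted p = 0.97 by limma), where that of the median gene moved to 0.19. With limma without the trend the adjusted p was 0.11, with edgeR 0.25 and with DESeq2 0.010. As a share of all reads on mouse genes Apoe took 3.53% to 4.18% in Con-Veh and 3.16% to 3.56% in Con-DHT, and on this scale the groups overlapped.

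Apoe is also made by macrophages. The summed deposited value of the 11 Kupffer cell and macrophage markers was 7439 to 9051 in Con-Veh and 4920 to 6546 in Con-DHT. The markers called lower were Clec4f, Vsig4, Cd5l, Cd68, C1qa and C1qb, and their part in the Apoe values was not tested. By the root mean square distance of centred log2 values over the 8 libraries, among 9153 genes with a mean of at least 100, the genes closest to Apoe were Acp5 (0.040), Chac2 (0.044) and Rdh9 (0.046). All 3 were chosen for a pattern like that of Apoe, so their differences are a description. Acp5, an acid phosphatase also made by macrophages, went from 1861 to 1523 on average (adjusted p = 0.048 by limma), and Rdh9, a retinol dehydrogenase, from 610.1 to 492 (adjusted p = 0.046). Chac2 had means of 376 and 326 and was not called (adjusted p = 0.21 by limma).

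Apoc1 and Apoc2 share the chromosome 7 cluster with Apoe. Apoc1, which inhibits the uptake of lipoproteins by receptors, had values of 19281 to 26266 in Con-Veh and 18944 to 23795 in Con-DHT, which overlapped throughout. Its log2 fold change was -0.08 (95% interval -0.37 to 0.20, adjusted p = 0.75 by limma). Apoc4, which lies between them and is not a member, had means of 6425 ± 512 and 5972 ± 692 (SD, n = 4). The nearest measured genes outside the cluster, Clptm1 and Tomm40, had log2 fold changes of -0.01 and -0.01 with adjusted p values of 0.96 and 0.98 by limma.

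Apoc2 encodes the activator of lipoprotein lipase and had the lowest value of the members by far, 113 to 162 in Con-Veh and 90.3 to 146 in Con-DHT. These values rest on 92 to 186 reads per library, and Apoc2 ranked 8550 by mean value among the mouse genes. In GENCODE M21, 79.5% of its exon bases also belong to Gm44805, a protein coding gene on the same strand that joins the neighbouring genes. A read in the shared exons cannot be assigned to either gene alone, and how the counting treated such reads is not given in the sources used here. Gm44805 itself had values of 34.7 to 68.9 in Con-Veh and 53.2 to 72.8 in Con-DHT. The following coding exon of 151 bases, at chr7:19673229-19673379 (GRCm38, minus strand), is shown because it is identical in Apoc2-201 and Gm44805-201.
Apoc2 and Gm44805: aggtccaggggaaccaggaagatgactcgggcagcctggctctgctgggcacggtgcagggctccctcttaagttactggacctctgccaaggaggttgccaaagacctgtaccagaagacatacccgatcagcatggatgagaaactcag

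The log2 fold change of Apoc2 was -0.24 (95% interval -0.61 to 0.13, adjusted p = 0.43 by limma), and the groups overlapped. With the exons shared, its level and its difference are both uncertain.

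Apom, a lipocalin that carries sphingosine 1-phosphate on HDL, was the other member whose groups did not overlap. Con-Veh replicates 1 to 4 had deposited values of 3484, 2409, 2298 and 2108. Con-DHT replicates 1 to 4 had 1654, 1531, 2094 and 1988. The gap between the groups was narrow, from 2094 to 2108, and Con-Veh replicate 1 stood highest. As a share of the reads on mouse genes Apom took 0.0136% to 0.0223% and 0.0104% to 0.0144%, and on this scale the groups overlapped. The means were 2575 ± 619 and 1817 ± 267 (SD, n = 4), and the log2 fold change was -0.49 with a 95% interval from -0.84 to -0.14 (SE 0.16), and its adjusted p was 0.095 with limma, 0.097 with edgeR and 0.036 with DESeq2. Scaled by the spike-ins the log2 fold change of Apom was -0.29 with an adjusted p of 0.91 by limma.

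Apoa4, a protein of chylomicrons, VLDL and HDL that also promotes the export of larger VLDL particles, had the largest difference of the members. Con-Veh replicates 1 to 4 had deposited values of 16441, 11589, 11601 and 13895. Con-DHT replicates 1 to 4 had 11704, 23955, 21043 and 32170. Replicates 2, 3 and 4 of Con-DHT were above every Con-Veh liver, and replicate 1 was close to the lowest of them. The means were 13381 ± 2310.0 and 22218 ± 8445 (SD, n = 4), and the log2 fold change was 0.66 with a 95% interval from 0.07 to 1.24 (SE 0.26, adjusted p = 0.17 by limma). Without Con-DHT replicate 1 it was 0.94 with an adjusted p of 0.019, and the adjusted p lay between 0.17 and 0.32 when any other library was left out. With all libraries it was 0.12 by edgeR and 0.034 by DESeq2.

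The genes closest to Apoa4 by the distance described for Apoe were Pfkfb1 (0.20), Bcam (0.22) and 2010003K11Rik (0.23). Pfkfb1 encodes the liver form of the enzyme that sets fructose 2,6-bisphosphate, and its values in Con-DHT replicates 1 to 4 were 360.1, 630.0, 563 and 665. In Con-Veh they were 484, 282, 379 and 329. As in Apoa4, replicate 1 was the lowest of Con-DHT and the highest of Con-Veh. The 3 genes were chosen for a pattern like that of Apoa4, so this likeness follows from the choice. Pfkfb1 itself had a log2 fold change of 0.58 and an adjusted p of 0.13 by limma.

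Gm47528, a gene model on the opposite strand that still awaits experimental evidence, covers 34.9% of the exon bases of Apoa4. Its values were 16.0 to 87.9 in Con-Veh and 25.5 to 153 in Con-DHT, highest in Con-Veh replicate 1 and Con-DHT replicate 4, the livers that were also highest in Apoa4. The library kit is not named as one that keeps strand, so reads of these genes cannot be told apart where they overlap. They amounted to far fewer reads than those of Apoa4.

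The other members of the chromosome 9 cluster had smaller differences, and the contrast with Apoa4 was not tested. Apoa1, the main protein of HDL, had values of 183359, 118053, 129470 and 159141 in Con-Veh replicates 1 to 4 and of 145157, 134488, 129575 and 204376 in Con-DHT replicates 1 to 4. The groups overlapped widely, and Con-Veh replicate 1 and Con-DHT replicate 4 were the highest of their groups in Apoa1, Apoa4 and Apoa5. The means of Apoa1 were 147506 ± 29516 and 153399 ± 34601 (SD, n = 4), with a log2 fold change of 0.05 (95% interval -0.46 to 0.57, adjusted p = 0.92 by limma).

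Apoc3, which inhibits lipoprotein lipase, had values of 13523 to 17910 in Con-Veh and 12160 to 15730 in Con-DHT. Its log2 fold change was -0.14 (95% interval -0.40 to 0.12, adjusted p = 0.52 by limma). Apoa5, which promotes the action of the lipase, had values of 20761 to 24885 and 19853 to 26477 and a log2 fold change of 0.04 (95% interval -0.23 to 0.31, adjusted p = 0.88). The genes that flank the cluster, Sik3 and Zpr1, had log2 fold changes of -0.03 (adjusted p = 0.87 by limma) and -0.31 (adjusted p = 0.32).

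Apob, whose protein stays with the VLDL particle from assembly to uptake, had deposited values of 62723, 70351, 63822 and 62849 in Con-Veh replicates 1 to 4. In Con-DHT replicates 1 to 4 they were 75930, 82069, 83608 and 68104. Only Con-Veh replicate 2 and Con-DHT replicate 4 crossed, and the other Con-DHT livers were above every Con-Veh liver. The means were 64936 ± 3643 and 77428 ± 7045 (SD, n = 4), and the mean of Con-DHT was higher by 19.2%. The log2 fold change was 0.25 with a 95% interval from -0.06 to 0.56 (SE 0.14), and the adjusted p was 0.31 with limma, 0.18 with edgeR and 0.047 with DESeq2. As a share of the reads on mouse genes Apob took 0.401% to 0.460% in Con-Veh and 0.477% to 0.574% in Con-DHT. On this scale the groups did not overlap, and for how many of all genes this holds was not counted. The major urinary protein (Mup) genes, pseudogenes left out, averaged 0.254% of the reads on mouse genes in Con-Veh and 0.856% in Con-DHT. A scaling to equal totals without the Mup genes moved genes in general upward in Con-DHT, and the part of the Mup genes in this was not tested. The median gene then had a log2 fold change of 0.09, and Apob 0.35 (adjusted p = 0.13 by limma).

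Apoa2, the second protein of HDL, had values of 68950 to 88831 in Con-Veh and 70272 to 92874 in Con-DHT. The difference was 0.03 on the log2 scale (95% interval -0.33 to 0.38, adjusted p = 0.95 by limma). The interval of Apoa2, like those of Apoa1, Apoa5, Apob, Apoc1, Apoc2, Apoc3 and Apoe, leaves room for differences in either direction. The fold changes of all members with their intervals are plotted beside those of DESeq2.

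**Figure D2:**
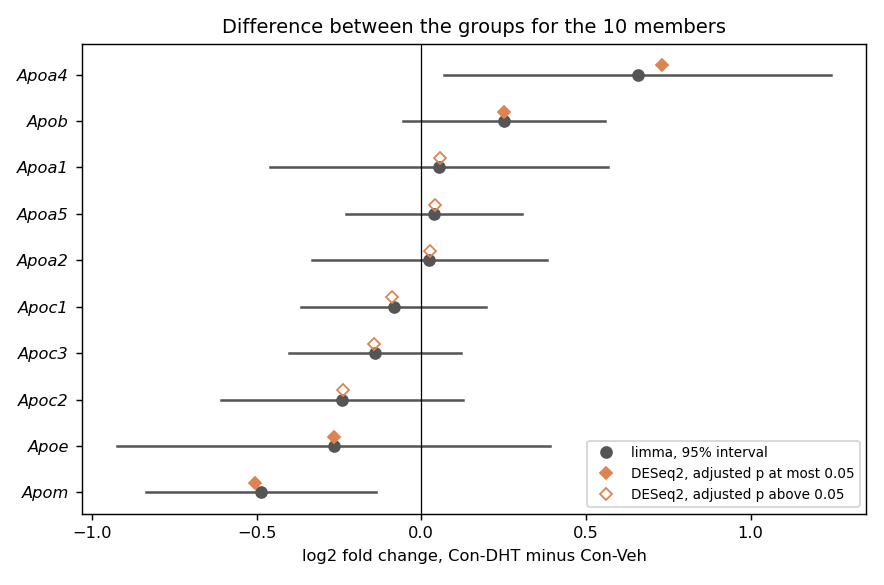
Log2 fold change, Con-DHT minus Con-Veh (horizontal axis), of the 10 members with limma (grey points, bars are 95% intervals) and with DESeq2 (diamonds, filled where the adjusted p is at most 0.05). The intervals of Apoa4 and Apom leave out 0, and DESeq2 calls Apoa4, Apob, Apoe and Apom.

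The spread between livers of a group differed among the members. Over the group means, the coefficient of variation was 5.27% in Con-Veh and 6.66% in Con-DHT for Apoe, and 17.3% and 38.0% for Apoa4. For Apob it was 5.61% and 9.10%. Apoe, Apob, Apoa1 and Apoa2 varied less within groups than the trend expects at their level, while Apoa4, Apom and Apoc2 varied more. To a lesser degree Apoa5 and Apoc1 also varied less. At the highest levels, however, the trend lay above the usual spread. Near a mean log2 value of 16.4 it expected an SD of 0.30, where the median SD of the 4 genes was 0.15. Near 17.0 these were 0.35 and 0.22 over 2 genes, and at the level of Apoe there was only 1 gene. The SD of Apoa4 within groups was 0.47 on the log2 scale against 0.17 expected, and that of Apom was 0.27 against 0.12.

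**Figure D3:**
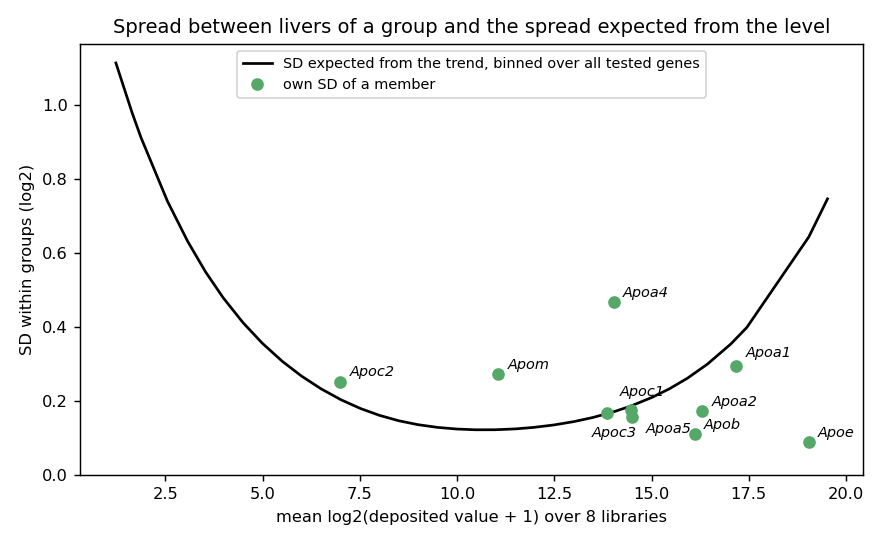
SD within groups on the log2 scale (vertical axis) against the mean log2(value + 1) over the 8 libraries (horizontal axis), for the members (points) and as given by limma's intensity trend (line, averaged in bins over all tested genes). Apoe, Apob, Apoa1, Apoa2, Apoa5 and Apoc1 lie below the line, Apoa4, Apom and Apoc2 above it, and Apoc3 close to it.

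Levels between genes were compared per kilobase of exons in GENCODE M21, which may differ from the annotation used for counting. In Con-Veh, Apoe stood highest at 276853 ± 14601 (SD, n = 4) deposited units per kb, followed by Apoa2 at 150377 ± 16577 and Apoa1 at 119341 ± 23880. The ranges of Apoa2 and Apoa1 overlapped over the Con-Veh livers. Apoc1 (31489 ± 4140), Apoc3 (15293 ± 1880) and Apoa5 (9024 ± 861) came next, each apart from its neighbours except that Apoa5 overlapped with Apoa4 (7373 ± 1273). Apob (4660 ± 261), whose exons of 13934 bases in all are the longest of the members, was followed by Apom (2542 ± 611). Apoc2, uncertain for its shared exons, was last at 171 ± 25.5. In Con-DHT the mean of Apoa4 per kb, 12241 ± 4653, was above that of Apoa5, 9291 ± 1093, and their ranges overlapped there too.

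**Figure D4:**
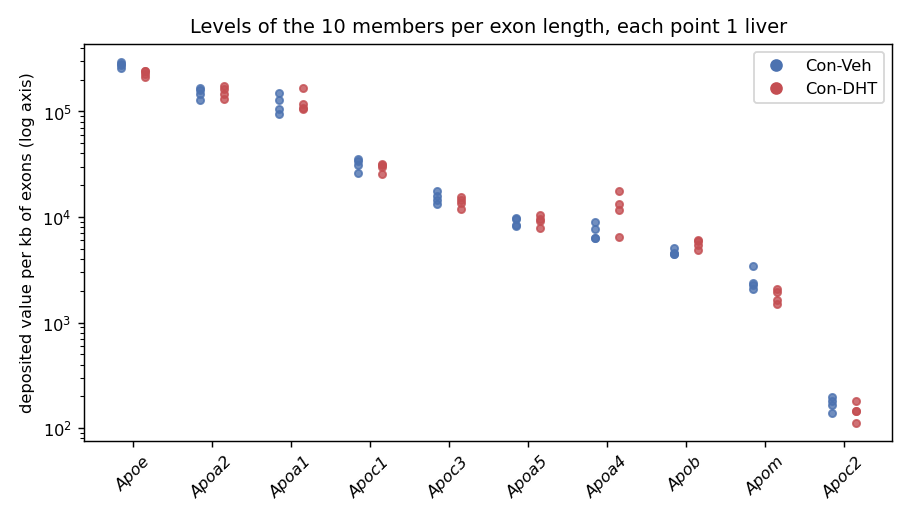
Deposited value per kilobase of exons (vertical log axis) of the 10 members in the Con-Veh (blue) and Con-DHT (red) livers, each point being 1 liver. Apoe is the highest and Apoc2 the lowest, and the Con-DHT points of Apoa4 spread from 6449 to 17724.

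Together the 10 genes took 6.04% to 6.58% of the reads on mouse genes in Con-Veh and 5.97% to 6.28% in Con-DHT, and these ranges overlapped. Within this sum, the reads of Apoe made up 58.5% to 63.8% in Con-Veh and 50.3% to 57.6% in Con-DHT. Those of Apob made up 6.43% to 7.48% and 7.60% to 9.29%. The shares of both genes did not overlap between the groups, and a share falls when another gene of the sum rises. For how many genes shares of this kind part the groups was not counted. On the deposited values the groups overlapped in Apob, and as a share of all reads on mouse genes they overlapped in Apoe.

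Ratios of 3 pairs of members were compared between the groups, since a ratio does not depend on how libraries were scaled to each other. The log2 ratio of Apoa1 to Apoa2 differed by 0.03 between Con-DHT and Con-Veh (exact two-sided permutation test, p = 1.0, adjusted p = 1.0 over the 3 ratios). That of Apoc2 to Apoc3, the activator and the inhibitor of the lipase, differed by -0.10 (exact permutation p = 0.57, adjusted p = 0.86). That of Apoa5 to Apoc3 differed by 0.18 (exact permutation p = 0.34, adjusted p = 0.86), from 0.56 ± 0.27 to 0.74 ± 0.27 on the log2 scale (SD, n = 4). The groups overlapped in all 3 ratios, and the smallest p that 4 mice against 4 allow is 0.029.

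Other apolipoproteins and HDL proteins were taken from a list of 25 genes, of which 19 could be tested. Of these, limma called 3 (15.8%), and all 3 fell, where 7.21% of all genes were called and 2.61% were called lower. Pon1, the paraoxonase carried by HDL, averaged 10028 ± 767 in Con-Veh and 7196 ± 785 in Con-DHT (SD, n = 4, log2 fold change -0.48, adjusted p = 0.017 by limma). Lcat, which esterifies cholesterol on HDL, went from 9292 ± 873 to 7075 ± 629 (log2 fold change -0.39, adjusted p = 0.036 by limma). Pltp, the phospholipid transfer protein, went from 550.3 ± 38.5 to 424 ± 32.2 (log2 fold change -0.38, adjusted p = 0.025 by limma). When 1 library was left out in turn, Pon1 stayed called in 7 of 8 fits, with an adjusted p of 0.054 without Con-Veh replicate 4, Pltp in 3 (adjusted p from 0.032 to 0.073) and Lcat in 1 (0.045 to 0.10). Scaled by the spike-ins, none of the 3 was called, and the log2 fold changes were -0.28 for Pon1, -0.19 for Lcat and -0.18 for Pltp (adjusted p = 0.91, 0.93 and 0.93 by limma).

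Pltp is also made by macrophages, whose markers were lower in Con-DHT as given above, and their part in this difference was not tested. Over the 19 genes the median log2 fold change was -0.28, beside -0.01 for all genes. Apoh, named after its values were seen, is a plasma glycoprotein that binds phospholipids and lay lower in all 4 Con-DHT livers, as did 6.62% of all genes. Its means were 29053 ± 1363 and 24235 ± 1841 (SD, n = 4, adjusted p = 0.15 by limma and 0.015 by DESeq2). Scaled by the spike-ins, the log2 fold change of Apoh was -0.06 (adjusted p = 0.97 by limma). Apod, also named after its values were seen, is a lipocalin with means of 411 ± 422 and 1573 ± 837 (SD, n = 4), overlapping groups and an adjusted p of 0.075 by limma.

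Of 26 genes of VLDL and chylomicron assembly, 2 were called (7.69%), near the 7.21% of all genes. Both rose, where 4.60% of all genes were called higher. They were the carboxylesterases Ces3a (log2 fold change 0.84, adjusted p = 0.012 by limma) and Ces3b (1.25, adjusted p = 0.0066). Both stayed called in 8 of 8 fits that left out a library. Close copies exist in this family, so the values of each are uncertain. Over the 26 genes the median was 0.01, and 24 did not pass.

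Of 26 lipoprotein receptors, lipases and lipid transfer genes, 6 were called (23.1%) and all 6 fell, with a median log2 fold change of -0.21 over the 26, beside 7.21% called, 2.61% called lower and a median of -0.01 over all genes. Sdc1, a heparan sulfate proteoglycan that takes up remnants, had means of 6093 ± 586 and 3935 ± 397 (SD, n = 4, log2 fold change -0.63, adjusted p = 0.0046 by limma). Lsr, the lipolysis-stimulated receptor, went from 1827 ± 164 to 1359 ± 75.9 (log2 fold change -0.42, adjusted p = 0.011 by limma). Both were called in 8 of 8 fits that left out a library. Stab2, a scavenger receptor of sinusoidal endothelium (-0.55, adjusted p = 0.018 by limma), was called in 6 of 8, with adjusted p values of 0.056 without Con-Veh replicate 4 and 0.052 without Con-DHT replicate 1.

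The cholesterol exporter Abcg1 (-0.49, adjusted p = 0.046 by limma) was called in 1 of 8 (adjusted p from 0.040 to 0.12). The hepatic lipase Lipc (-0.41, adjusted p = 0.047 by limma), named after its values were seen, was also called in 1 of 8 (0.015 to 0.12). The 6 endothelial markers, Stab2 among them, had a summed value of 3363 to 3791 in Con-Veh and 2534 to 2846 in Con-DHT, and Abcg1 is also expressed by macrophages. Their part in these values was not tested. Scaled by the spike-ins, none of the 6 was called, and with an equal total without Mup genes (major urinary proteins) 3 genes of the list were called lower and 1 higher.

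Of 35 tested transcription factors of apolipoprotein genes, 2 were called (5.71%) and both fell, among them Foxa2, a forkhead factor of hepatocytes (-0.54, adjusted p = 0.033 by limma). Foxa2 was called in 1 of 8 fits that left out a library, with adjusted p from 0.012 to 0.087. The median of this list was 0.02. Its share of calls was below the 7.21% of all genes, and the direction was not stable, since with an equal total without Mup genes 3 genes were called, all higher, and DESeq2 called 3 higher and 2 lower. Creb3l3, a known activator of Apoa4 that is named after its values were seen, had means of 5895 ± 433 and 6951 ± 202 (SD, n = 4). Its groups did not overlap, a gap seen in that direction in 8.49% of all genes. In either direction 4 of the 35 factors did not overlap, where 15.1% of all genes did not. The adjusted p of Creb3l3 was 0.089 by limma and 0.023 by DESeq2, and its part in the Apoa4 values was not tested. Of 18 genes around the clusters on chromosomes 7 and 9, none was called by limma, where 7.21% of all genes were called. At an unadjusted p of at most 0.05 by limma 2 passed, against 23.2% of all genes. DESeq2 called 2 of them, 1 higher and 1 lower, where 11.0% of all genes were called, and edgeR called 0, where 7.15% were called.

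**Figure D5:**
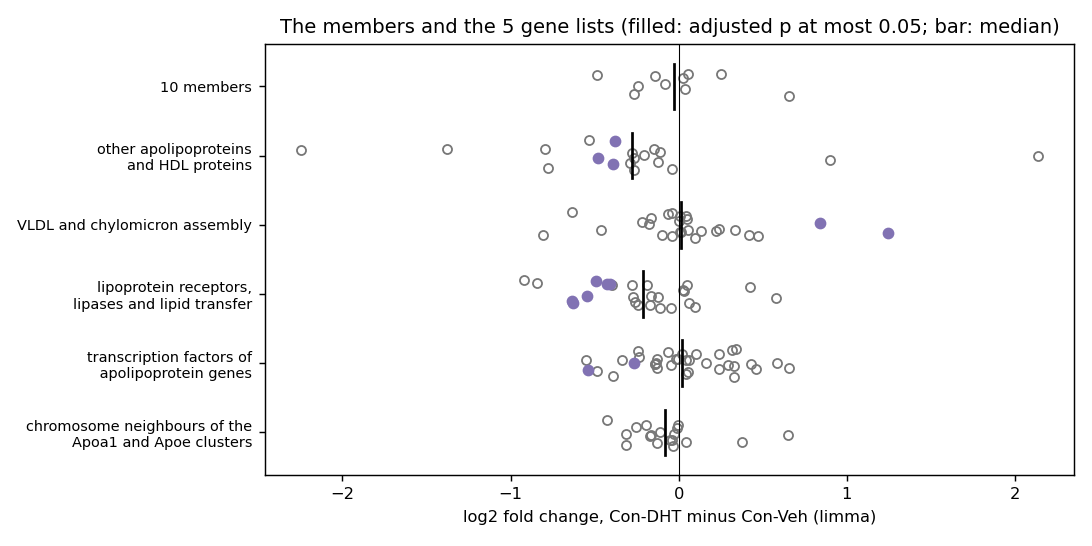
Log2 fold change, Con-DHT minus Con-Veh (horizontal axis), of the 10 members and of the tested genes of 5 lists, each point being a gene, filled where the adjusted p by limma is at most 0.05, with the median as a bar. None of the 10 members is filled, while the receptor and lipase list has 6 filled points, all below 0.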

How the data were processed

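RNA-seq was done on 4 Con-Veh and 4 Con-DHT livers. According to the methods and processing notes, the authors trimmed reads with Trimmomatic, aligned them with STAR (GRCm39), counted the uniquely mapped exonic reads by featureCounts and normalized with DESeq2. The deposited values are a normalized signal, read counts divided by 1 size factor per library. Whole reads were recovered for 100% of values (within 0.001 reads). Genes with a mean of at least 10 were compared as log2(value + 1), which understates changes of low genes, with limma 3.58.1 (intensity trend, R 4.3.3, Benjamini-Hochberg over all genes, threshold 0.05). Alternatives were pseudocounts of 0.1 and 5, other filters and scalings, no trend, a replicate block, edgeR 4.0.16, DESeq2 1.42.0 on the recovered reads and leaving out each library. Ratios were tested by exact permutation over the mice (scipy 1.17.1). Tests were checked on simulated counts. Symbols, exon lengths and gene order came from GENCODE M21 (GRCm38). The named genes were the members, up to 5 called genes of each list, the genes flanking the clusters and the 3 genes closest to Apoa4 and to Apoe. Apoc4 and the genes that overlap a member were named in addition, for their position, and any other gene is said to be named after its values were seen. The members and lists were chosen with earlier results of these data known. Libraries of a group differed beyond sampling noise (chi-square per degree of freedom 19.5 to 62.9). Some called genes, motifs and details of genotype are not reported here.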

Additional observations from a re-analysis of the deposited data

Results flagged for a closer look

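In Apob, Con-Veh replicate 2, at a deposited value of 70351, lay apart from the other 3 livers (62723 to 63822), with a gap to the nearest of them that was 0.856 of the range of the group, above Dixon's critical value for 4 samples. It was the only such library among 26 groups of 4 values tested, of which chance gives such a gap in about 1 in 20. Without this library the log2 fold change of Apob was 0.29 with an adjusted p of 0.34 by limma.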

How the results depend on the processing

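The count of called genes was 1032 and moved to 648 with a mean of at least 50, 637 with spike-in scaling, 1569 with DESeq2 and 633 to 905 when a library was left out (633 without Con-Veh replicate 4, 648 without Con-Veh replicate 2, 659 without Con-DHT replicate 1 and 662 without Con-DHT replicate 2). Of the 1032, 658 were higher and 374 lower in Con-DHT, and with the spike-ins 562 and 75. Called members moved from 0 to 4 with DESeq2 and lay between 0 and 1 without a library. Called genes moved to 5 (DESeq2) or 1 (equal total without the Mup (major urinary protein) genes, no trend, replicate block) for the HDL list, to 4 (DESeq2) or 1 (replicate block) for VLDL assembly, to 3 (no trend) or 0 (spike-ins) for receptors and lipases, to 5 (DESeq2), 1 (mean of at least 50, replicate block) or 0 (spike-ins, no trend) for transcription factors, and to 2 (DESeq2) or 1 (equal total) for the cluster neighbours. Directions were mixed with DESeq2 for VLDL assembly (2 higher, 2 lower), receptors (1 higher, 7 lower), transcription factors (3 higher, 2 lower) and cluster neighbours (1 higher, 1 lower). For receptors they were also mixed with the replicate block (1 higher, 4 lower) and an equal total (1 higher, 3 lower). For transcription factors they were mixed with quantile normalization (1 higher, 1 lower), while an equal total gave 3 higher and 0 lower transcription factors. Without a library these lay at 0 to 5, 2 to 4, 2 to 5, 0 to 3 and 0 to 1. The causes were not tested. With the spike-ins the HDL list again had 3 calls, but of Apod, higher, and Saa1 and Saa2, lower. The groups overlapped in all 3, and the acute phase genes Saa1 and Saa2 stood apart in Con-Veh replicates 1 and 2 (Saa1 5476 and 19178, against 337 and 277 in replicates 3 and 4, and Saa2 1920.5 and 11404, against 181 and 156). Spike-in reads were 1.68% of Con-Veh replicate 4 and 2.22% to 3.61% of the other libraries, and the median gene moved to 0.19 under this scaling. Differences without a call changed sign for Apoc1 with the spike-ins (0.11) and an equal total (0.014) and for Apoc3 with the spike-ins (0.058), and both were below the median gene. Without a library Apoa1 lay between -0.093 and 0.17, Apoa2 between -0.049 and 0.098 and Apoa5 between -0.022 and 0.12, which include a change of sign, Apoc1 lay between -0.17 and -0.013, Apoc2 between -0.35 and -0.12 and Apoc3 between -0.20 and -0.069, and the log2 ratios of Apoa1 to Apoa2 between -0.14 and 0.21, of Apoc2 to Apoc3 between -0.19 and 0.012 and of Apoa5 to Apoc3 between 0.07 and 0.31. Libraries with the same replicate number did not deviate together (r from -0.19 to -0.01), so the numbers were not used as pairs. The replicate block called 700 genes and 0 members, and for the ratios the block leaves the differences (0.03, -0.10 and 0.18) as they are by construction, with exact sign-flip p of 1.0, 0.875 and 0.5, where 0.125 is the smallest possible.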
